A study of Sus scrofa with 4 samples.

Results

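Pigs present peptides to T cells with swine leukocyte antigens (SLA), the porcine major histocompatibility complex (MHC). The genes examined were those whose symbol starts with SLA- together with 17 named genes of the presentation pathway. Of the 29263 genes in each table, 20 were found: 4 SLA- genes and 16 of the named genes. Of these, 18 were listed under their symbol, and CD74 and TAP2 were listed under an Ensembl identifier that the gene name table pairs with them. TAPBP was not matched and is not analysed here. The 4 SLA- genes are all class II (SLA-DQB1, SLA-DMA, SLA-DMB and SLA-DOA), so the class I heavy chains are not analysed here and class I is represented by its shared light chain, its regulator and its peptide supply. The class I side held 12 genes and the class II side 8.

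The cells came from lung of pigs with the genotype LGR5-H2B-GFP knock-in, in which the locus of LGR5, a receptor for R-spondins, drives a histone fused to green fluorescent protein. All 4 libraries carry this allele. Cells sorted as bright form the group GFP-HI and cells without fluorescence the group GFP-NEG, each with biological replicates 1 and 2. Headings in the deposited comparison name pig 1 and pig 2 for both fractions, but 2 of the 4 carry another library's counts, so which libraries share an animal is not given in the sources used here. The labels' protocol covers adult and fetal lung, and stage is named only in the title of the deposited comparison, which reads adult pig. Age and sex are not given in the sources used here. The protocol includes washing of minced tissue to clear blood and immune cells, red cell lysis for adult tissue, enzyme digestion and exclusion of dead cells with propidium iodide. It names EPCAM and NGFR antibodies without saying which gates apply to these libraries.

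Class I molecules stand on nearly all nucleated cells. Proteasomes, in which interferon-inducible subunits can replace the constitutive ones, cut cytosolic proteins, the TAP transporter carries the peptides into the endoplasmic reticulum, aminopeptidases trim them, and chaperones load them onto a heavy chain paired with B2M. Class II molecules are made mainly by B cells, dendritic cells and macrophages, are escorted by the invariant chain CD74, and receive their peptides in endosomes with the help of DM. NLRC5 and CIITA are the transactivators of the class I and class II genes, and both are inducible by interferon gamma.

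The GFP-HI libraries held 24200550 and 24689986 counts and the GFP-NEG libraries 6292253 and 7045652, so depth differs with the group and cannot be told apart from it. Each member had at least 86 counts in every library. LGR5 itself was at 145 and 152 CPM in GFP-HI and at 1.55 and 0.765 CPM in GFP-NEG, where CPM is the count scaled to a common library total after TMM scaling, which corrects for differences in composition between libraries. All 8 fibroblast markers on the list stood above GFP-NEG in both GFP-HI libraries, and 5 of the 8 passed the test. Over all genes tested, 27.7% were apart in this direction and 8.33% were called higher. Leukocyte RNA was present in both groups: GFP-HI counts of PTPRC, the gene for CD45, were 1014 and 2442, against 4424 and 11074 in GFP-NEG. Scaled for depth, PTPRC was at 45.8 and 120.7 CPM in GFP-HI and at 685 and 1210 CPM in GFP-NEG.

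Class II genes were lower in LGR5-reporter-bright cells, whereas most of the class I side did not pass the test. All 20 genes passed the filter on low counts. Of these, 8 fell in GFP-HI and 0 rose in the quasi-likelihood test of edgeR (Benjamini-Hochberg over 19682 genes, threshold 0.05). The 8 were SLA-DQB1, SLA-DMA, SLA-DMB, SLA-DOA and CIITA on the class II side, and NLRC5, PSMB8 and PSMB9 on the class I side. Over all genes tested, 27.6% were lower in GFP-HI and 8.33% were higher by the same rule. The class II side had 5 of 8 genes called lower and the class I side 3 of 12 (PSMB9 just inside the threshold), the latter a share close to the background. None of the 20 was higher at an unadjusted p under 0.05 either, and DESeq2 called 9 lower and 0 higher, against 24.9% and 5.60% of the genes it tested. The median log2 fold change was -2.35 on the class II side and -0.43 on the class I side, against -0.25 over all genes tested. These are bulk libraries, so fewer cells of a type and less RNA per cell cannot be told apart.

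**Figure D1:**
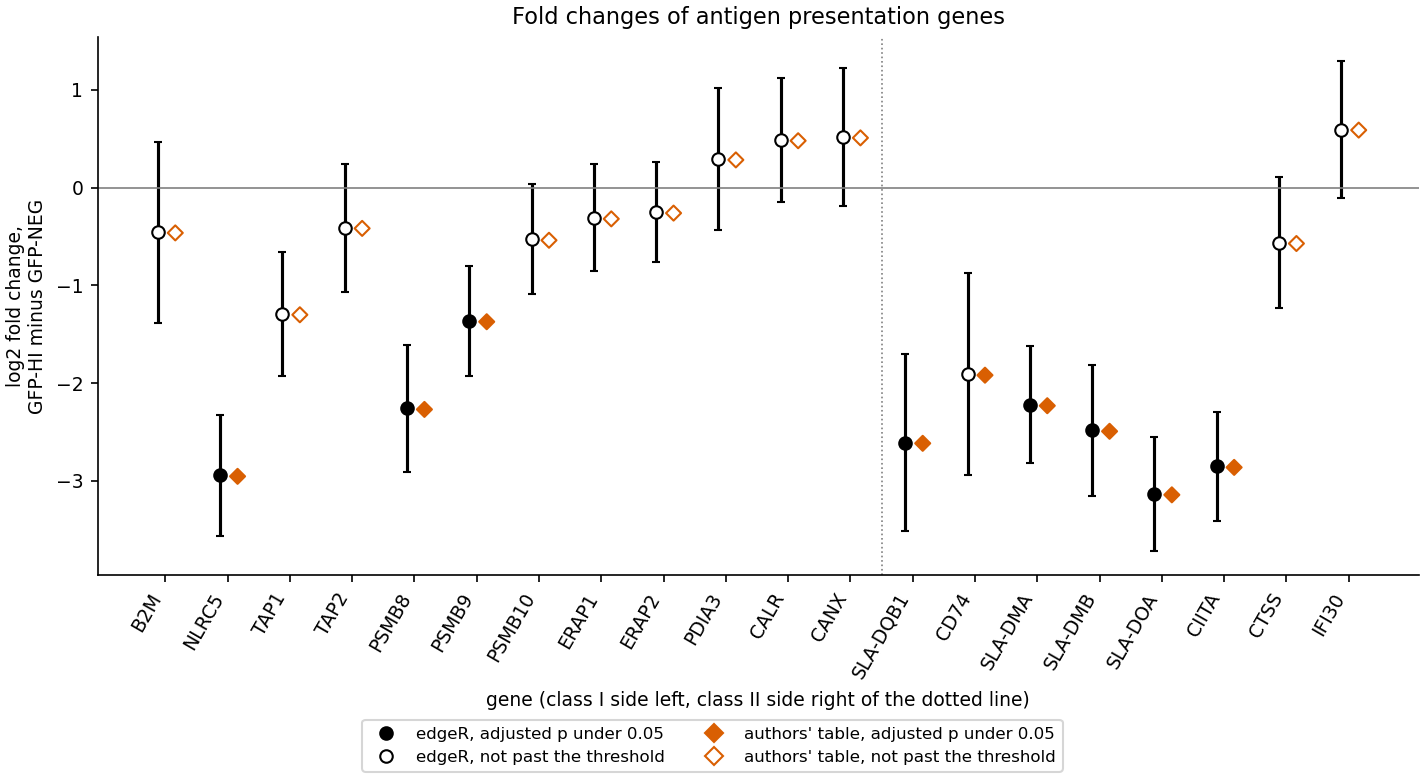
Log2 fold change (GFP-HI minus GFP-NEG) of the 20 genes. Circles give the edgeR estimate with its standard error (2 libraries per group), diamonds the value in the authors' deposited table. Filled symbols are past an adjusted p of 0.05. The spread behind the standard errors comes almost fully from the trend over all genes, not from each gene's own replicates. The class II chain, DM, DO and the transactivators CIITA and NLRC5 lie below -2, while the chaperones PDIA3, CALR and CANX lie just above 0.

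On the class II side, SLA-DQB1, the beta chain of the DQ molecule, stood at 161 and 428 CPM in GFP-HI (replicates 1 and 2) and at 1655 and 1931 CPM in GFP-NEG. Both GFP-HI libraries were far under both GFP-NEG libraries, and GFP-HI replicate 1 was the lowest. The group means were 294 ± 188 and 1793 ± 195 CPM (SD, n = 2), or -2.61 ± 0.91 (SE) as a log2 fold change (edgeR, adjusted p of 0.014). The invariant chain CD74 followed the same order, at 709 and 1021 CPM in GFP-HI against 2343 and 4146 CPM in GFP-NEG. The groups did not overlap, and the highest level was in GFP-NEG replicate 2. Its log2 fold change of -1.91 ± 1.03 (SE) did not pass the edgeR threshold (adjusted p of 0.14). As for every gene here, that standard error rests almost fully on the trend over all genes, not on the gene's own replicates. CD74 did pass in the authors' deposited table, where the estimate is -1.92 and the adjusted p 0.0020, the same values as in the DESeq2 fit here.

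The peptide editors fell as well. SLA-DMA and SLA-DMB encode the chains of DM, which exchanges the invariant chain remnant for antigenic peptide. SLA-DMA was at 21.0 and 69.6 CPM in GFP-HI against 163 and 259.7 CPM in GFP-NEG, and SLA-DMB was at 46.6 and 96.0 CPM against 361 and 436 CPM. Neither gene's groups overlapped, and in both groups replicate 1 was the lower library. The log2 fold changes were -2.22 ± 0.60 and -2.48 ± 0.67 (SE), with adjusted p-values of 0.0011 for each (edgeR). SLA-DOA, a chain of the DM inhibitor DO that B cells make most, was at 3.88 and 6.18 CPM in GFP-HI and at 36.5 and 51.6 CPM in GFP-NEG. Its estimate was the lowest of the 20 genes (log2 fold change -3.13 ± 0.58 (SE), adjusted p of 3.4e-06, edgeR). Counts of SLA-DMB per count of SLA-DOA, a ratio that needs no scaling between libraries, were 12.0 and 15.5 in GFP-HI against 9.89 and 8.46 in GFP-NEG. The DM chain was thus higher relative to the DO chain in both GFP-HI libraries than in either GFP-NEG library, a difference with no test. Any gene that fell less than SLA-DOA tends to rise in such a ratio, and the share of all genes that did was not counted.

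CIITA, on which class II transcription depends, was at 19.5 and 13.2 CPM in GFP-HI and at 101 and 135 CPM in GFP-NEG. The lower GFP-NEG library was several times above the higher GFP-HI library. The difference was -2.85 ± 0.56 on the log2 scale (SE, adjusted p of 1.1e-05, edgeR). CIITA was the only one of the 6 core class II genes (the DQ chain, CD74, the 3 editors and CIITA itself) with a higher level in replicate 1 than in replicate 2 of GFP-HI. CIITA acts on a complex that includes RFX and NFY factors bound to class II promoters. Of 6 regulator genes tested (RFX5, RFXANK, NFYA, NFYB, NFYC and CREB1) none passed the threshold, and RFXAP was not matched. RFX5 was at 98.2 and 106 CPM in GFP-HI against 67.3 and 65.7 CPM in GFP-NEG (log2 fold change 0.62 ± 0.54 (SE), adjusted p of 0.40, edgeR).

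The endosomal enzymes on the list did not move with the class II chains. CTSS encodes cathepsin S, which degrades the invariant chain, and IFI30 a thiol reductase that unfolds antigens. CTSS was at 160.0 and 351 CPM in GFP-HI against 359 and 397 CPM in GFP-NEG, and IFI30 was at 417 and 530.3 CPM against 400.0 and 229 CPM. The CTSS groups were separated by a narrow gap, and the IFI30 levels of replicate 1 were nearly equal in the 2 groups. Neither gene passed the test, with log2 fold changes of -0.56 ± 0.67 for CTSS and 0.59 ± 0.70 for IFI30 (SE, adjusted p of 0.55 for each, edgeR). IFI30 was the only gene of the class II side with a positive estimate.

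**Figure D2:**
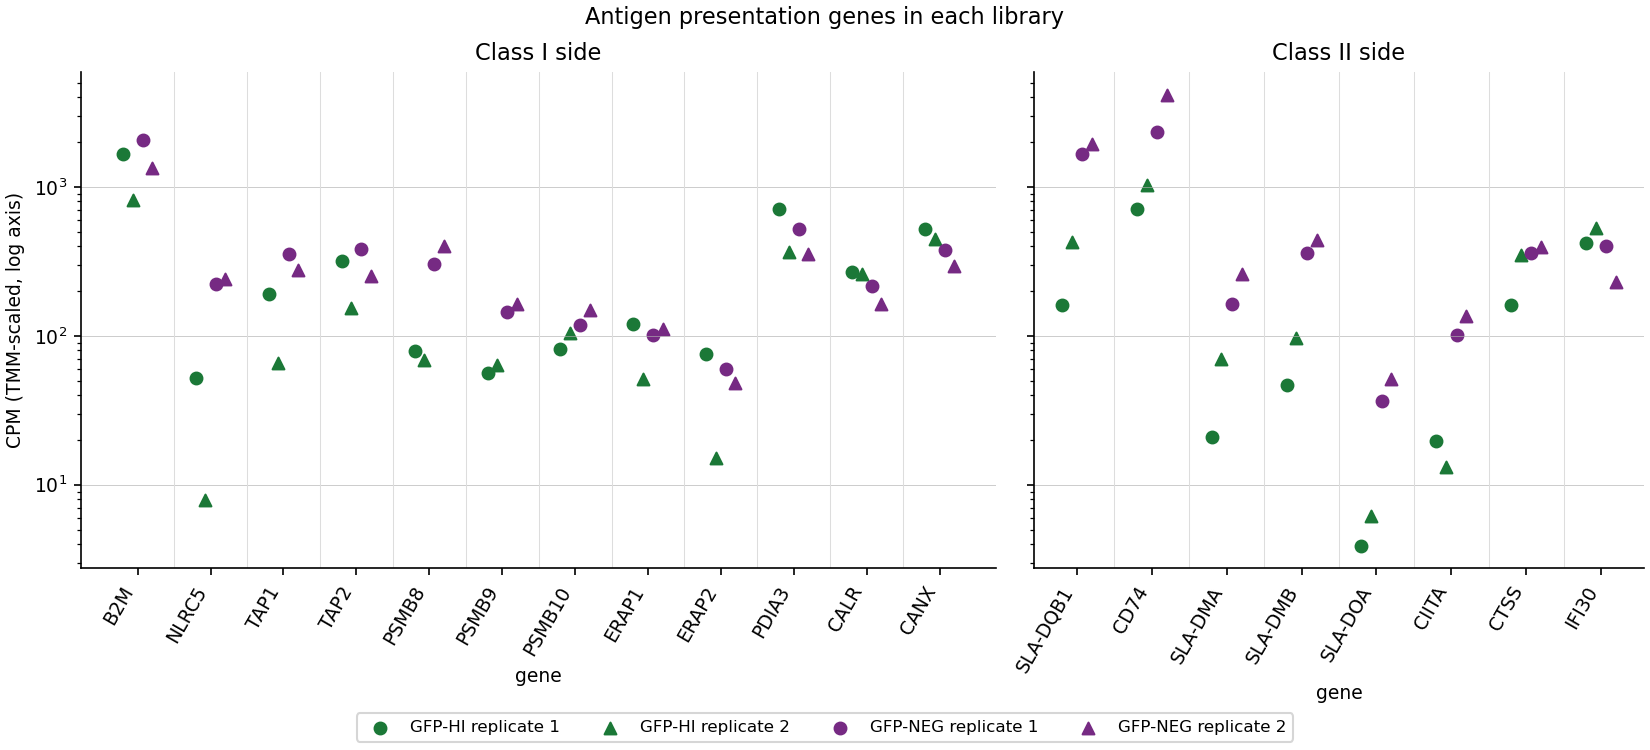
CPM (log axis) of each gene in each of the 4 libraries, class I side on the left and class II side on the right. Green marks GFP-HI, purple GFP-NEG, circles replicate 1 and triangles replicate 2. In SLA-DQB1, CD74, the DM and DO chains and CIITA, both purple symbols lie above both green ones, while the symbols of B2M, TAP2, ERAP1, ERAP2 and PDIA3 interleave. Levels of different genes are not corrected for gene length.

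A pair of further class II genes, chosen after their values were seen because the tables list them under HLA symbols, followed the same pattern. HLA-DRA, the alpha chain of the DR molecule, was at 177 and 436 CPM in GFP-HI and at 1994 and 2555 CPM in GFP-NEG. The difference was -2.89 ± 0.96 on the log2 scale (SE, adjusted p of 0.010, edgeR). HLA-DOB, the beta chain of DO, reached counts of 17 and 72 in GFP-HI against 201 and 353 in GFP-NEG. In CPM it was at 0.768 and 3.56 against 31.1 and 38.6 (log2 fold change -4.01 ± 0.64 (SE), adjusted p of 4.6e-08, edgeR). Counts of HLA-DRA per count of SLA-DQB1 were 1.10 and 1.02 in GFP-HI against 1.20 and 1.32 in GFP-NEG, a range far narrower than that of either gene's level.

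Most lists of leukocyte markers were lower in the same libraries as the class II genes. All 4 general leukocyte markers, 6 of 7 B cell markers and 4 of 5 dendritic cell markers fell in GFP-HI. So did 7 of 8 T and NK cell, 3 of 4 plasma cell and 3 of 4 neutrophil markers and all 6 endothelial markers. Over all genes tested, 27.6% were lower by the same rule. The alveolar type 2 markers (2 of 6 lower) and epithelial markers (1 of 4) had shares close to that background. Macrophage and monocyte markers were less uniform, with 4 of 10 called lower. In 3 of these 10 both GFP-HI libraries were under both GFP-NEG libraries, against 42.0% of all genes tested. The summed leukocyte level was 208 and 475 CPM in GFP-HI against 3081 and 4604 CPM in GFP-NEG, and the summed dendritic cell level 11.2 and 14.0 against 120.1 and 184 CPM. The B cell sum was 87.9 and 180.4 CPM against 289 and 677 CPM, most of it in GFP-HI from CD79A. Without CD79A, the other 6 B cell markers summed to 10.4 and 21.5 CPM in GFP-HI and 183 and 426 CPM in GFP-NEG. The macrophage and monocyte sum was 565 and 479 CPM against 2057 and 782 CPM. No marker on these lists was at 0 in both GFP-HI libraries. CD79A, a B cell receptor component, was the B cell marker that did not pass, at 77.5 and 159 CPM in GFP-HI against 106 and 251 CPM in GFP-NEG. The part of these cells in the class II result was not tested.

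Relative to PTPRC, 6 of the 8 class II side genes were higher in both GFP-HI libraries than in either GFP-NEG library. PTPRC itself fell by 3.51 on the log2 scale, and 70.7% of all genes tested were apart in this direction by the same ratio, so the share of the class II side is close to the background. In counts per count of PTPRC, CD74 was at 15.5 and 8.46 in GFP-HI and at 3.42 and 3.43 in GFP-NEG. SLA-DQB1 was at 3.52 and 3.54 against 2.42 and 1.60, SLA-DMA at 0.460 and 0.577 against 0.237 and 0.215, and SLA-DMB at 1.02 and 0.796 against 0.527 and 0.361. For these genes both GFP-HI libraries lay above both GFP-NEG libraries. The exceptions were SLA-DOA (0.0848 and 0.0512 against 0.0533 and 0.0426) and CIITA (0.426 and 0.109 against 0.147 and 0.112), whose groups overlapped. The widest gaps were those of the endosomal enzymes, with CTSS at 3.50 and 2.91 against 0.524 and 0.328 and IFI30 at 9.11 and 4.39 against 0.584 and 0.189. These ratios rest on 2 libraries per group and carry no test.

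**Figure D3:**
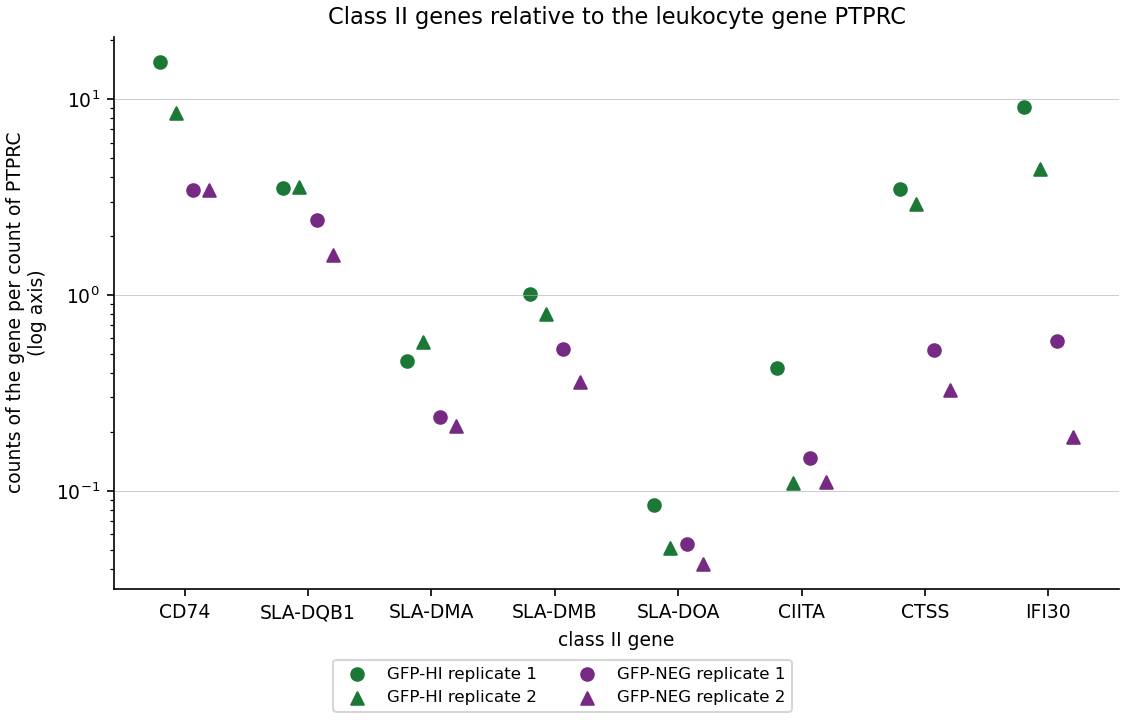
Counts of the 8 class II genes per count of PTPRC in the same library (log axis). Colors and symbols mark the group and replicate. Green symbols (GFP-HI) lie above purple ones (GFP-NEG) for every gene except SLA-DOA and CIITA, for which GFP-HI replicate 2 (0.0512 and 0.109) lies under GFP-NEG replicate 1 (0.0533 and 0.147).

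On the class I side, B2M, the light chain common to all class I molecules, was abundant in both groups. It was at 1665 and 814 CPM in GFP-HI and at 2070 and 1335 CPM in GFP-NEG. The groups overlapped, and in each group replicate 1 was the higher library. The log2 fold change was -0.46 ± 0.93 (SE), which did not pass the threshold (adjusted p of 0.75, edgeR). RefSeq's table of the assembly Sscrofa11.1 lists 2 genes with the symbol B2M side by side, while the count tables hold 1 row of that name, so reads shared between the copies make its level uncertain. The summed counts of SLA-DQB1, SLA-DMA, SLA-DMB, SLA-DOA and CD74 per count of B2M were 0.565 and 1.99 in GFP-HI against 2.20 and 5.11 in GFP-NEG.

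NLRC5 had the lowest estimate of the class I side. It was at 52.1 and 7.86 CPM in GFP-HI and at 222 and 239 CPM in GFP-NEG. The GFP-NEG libraries were close to each other, while GFP-HI replicate 1 was 6.63 times replicate 2. On the log2 scale the groups differed by -2.94 ± 0.62 (SE, adjusted p of 4.2e-05, edgeR). Between the libraries numbered 1 the log2 difference was -2.09, and between those numbered 2 it was -4.93. Counts of NLRC5 per count of CIITA were 2.67 and 0.596 in GFP-HI against 2.20 and 1.77 in GFP-NEG, so both GFP-NEG values lay between the GFP-HI values.

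Of the 3 immunoproteasome subunits, 2 passed the test. PSMB8, whose product replaces PSMB5 in the proteasome core, was at 78.9 and 68.7 CPM in GFP-HI and at 304 and 403 CPM in GFP-NEG. It fell by 2.26 ± 0.65 on the log2 scale (SE, adjusted p of 0.0025, edgeR). PSMB9 was at 56.2 and 63.4 CPM against 144 and 163 CPM and stood just inside the threshold (log2 fold change -1.36 ± 0.57 (SE), adjusted p of 0.045, edgeR). The PSMB9 call was lost with either other filter on low counts (adjusted p of 0.079 and 0.060), without any 1 of the 4 libraries (0.13 to 0.30) and with the replicate number as a block (0.052, edgeR). PSMB10 was at 81.0 and 104 CPM against 119 and 149 CPM and did not pass (log2 fold change -0.53 ± 0.56 (SE), adjusted p of 0.50, edgeR). In all 3 genes both GFP-HI libraries were under both GFP-NEG libraries. PSMB7, the constitutive subunit that PSMB10 replaces, was at 95.2 and 232 CPM in GFP-HI against 80.8 and 83.9 CPM in GFP-NEG, and was not past the threshold (adjusted p of 0.18, edgeR). Counts of PSMB10 per count of PSMB7 were 0.851 and 0.450 in GFP-HI against 1.47 and 1.77 in GFP-NEG. PSMB10 was thus lower relative to PSMB7 in both GFP-HI libraries, a difference with no test. The ratio was lowest in GFP-HI replicate 2, where PSMB7 was highest. PSMB5 and PSMB6 were not matched, so no other pair was compared.

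The transporter genes did not pass the test. TAP1 was at 191 and 65.2 CPM in GFP-HI and at 353 and 276 CPM in GFP-NEG, and TAP2 was at 319 and 154 CPM against 379 and 250.1 CPM. The TAP1 groups were apart and the TAP2 groups overlapped. The log2 fold changes were -1.29 ± 0.64 for TAP1 (adjusted p of 0.10) and -0.41 ± 0.65 for TAP2 (adjusted p of 0.67, SE, edgeR). Both chains are needed for the transporter, and counts of TAP1 per count of TAP2 were 0.599 and 0.423 in GFP-HI against 0.930 and 1.10 in GFP-NEG. In RefSeq's table of Sscrofa11.1, TAP2, PSMB8, TAP1 and PSMB9 are consecutive protein-coding genes inside the class II region, preceded by SLA-DOB and followed by BRD2, SLA-DMB, SLA-DMA and SLA-DOA. Along this row, the log2 fold changes of the members were -0.41, -2.26, -1.29 and -1.36 for the transporter and proteasome genes and -2.48, -2.22 and -3.13 for the class II genes.

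No peptide trimming or loading gene passed the test. ERAP1 was at 119.8 and 51.1 CPM in GFP-HI against 102 and 110.3 CPM in GFP-NEG, and ERAP2 was at 75.2 and 15.2 CPM against 59.9 and 47.9 CPM. Both aminopeptidase genes were above GFP-NEG in replicate 1 (log2 differences of 0.24 and 0.33) and under it in replicate 2 (-1.11 and -1.66), with adjusted p-values of 0.70 and 0.75 between the groups (edgeR). The chaperones PDIA3 (ERp57), CALR (calreticulin) and CANX (calnexin), which fold many glycoproteins besides class I, had log2 fold changes of 0.29, 0.49 and 0.51, with standard errors of 0.63 to 0.73 and adjusted p-values of 0.59 to 0.80 (edgeR). CALR was at 269 and 259 CPM against 215 and 163 CPM, and CANX at 519.8 and 443 CPM against 378 and 295 CPM. PDIA3, at 708 and 362 CPM against 522 and 354 CPM, had overlapping groups, and its sign turned under other scalings (log2 fold change -0.0064 with upper-quartile scaling and -0.076 with library size alone).

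In 12 of the 20 genes both GFP-HI libraries were under both GFP-NEG libraries, and in 3 (IFI30, CALR and CANX) both were above. Over all genes tested, 42.0% were apart in the first direction and 27.7% in the second. Between libraries of the same number, 14 genes were lower in GFP-HI for both numbers and 4 were higher for both, ERAP1 and ERAP2 being the exceptions. The authors' deposited table lists all 20 genes and calls 9 lower and 0 higher at an adjusted p under 0.05, against 11.2% and 8.20% of its 16250 genes. These 9 are the 8 genes called here by edgeR and CD74. For all 20 genes the table's estimates and adjusted p-values equal those of the DESeq2 fit here, so the 2 are not separate results. The table lists fewer genes than that fit tested, so its 11.2% is not the share over all genes. Of the 24178 genes in that fit, 24.9% were lower and 5.60% higher.

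The replicates of GFP-HI differed in opposite directions on the class I and class II sides. In GFP-HI, 10 of 12 class I side genes were higher in replicate 1, with a median log2 difference of 1.00, and in GFP-NEG 7 of 12 were, with a median of 0.34. On the class II side 1 of 8 genes was higher in replicate 1 in each group, with medians of -0.86 and -0.35. All genes tested had medians of 0.0077 and -0.12, over those with counts in both replicates. Among these, 8207 of 16308 in GFP-HI and 8777 of 19570 in GFP-NEG were higher in replicate 1. On the class I side the spread was widest in NLRC5 (6.63 times higher in GFP-HI replicate 1), ERAP2 (4.96 times), TAP1 (2.94 times) and ERAP1 (2.34 times). In GFP-NEG the same ratios were 0.928, 1.25, 1.28 and 0.922. On the class II side it was widest in SLA-DMA and SLA-DQB1, whose GFP-HI replicate 1 stood at 0.302 and 0.377 of replicate 2, against 0.626 and 0.857 in GFP-NEG.

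Interferon-stimulated genes and leukocyte genes differed between the same replicates. Of 22 genes on the list of interferon response and MHC regulators, 15 were higher in replicate 1 of GFP-HI and 17 in replicate 1 of GFP-NEG. Over all genes tested with counts in both replicates, 8207 of 16308 and 8777 of 19570 were. ISG15, a ubiquitin-like interferon product, was at 1933 and 100.4 CPM in GFP-HI and at 4077 and 734 CPM in GFP-NEG. MX1, an antiviral GTPase, was at 1539 and 92.0 CPM against 1954 and 221 CPM. Both genes were chosen after their values were seen, and neither passed the test between groups (adjusted p of 0.34 and 0.75, edgeR). The 4 general leukocyte, 7 B cell and 8 T and NK cell markers were all higher in replicate 2 of both groups. Other leukocyte lists did not share this order. Macrophage and monocyte markers were higher in replicate 1 for 6 of 10 in GFP-HI and 9 of 10 in GFP-NEG. Neutrophil markers were higher in replicate 1 for 3 of 4 and 4 of 4. For dendritic cells the count was 2 of 5 in each group, and for plasma cells 2 of 4 and 0 of 4. The part of interferon and of leukocyte RNA in the replicate differences of the presentation genes was not tested.

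**Figure D4:**
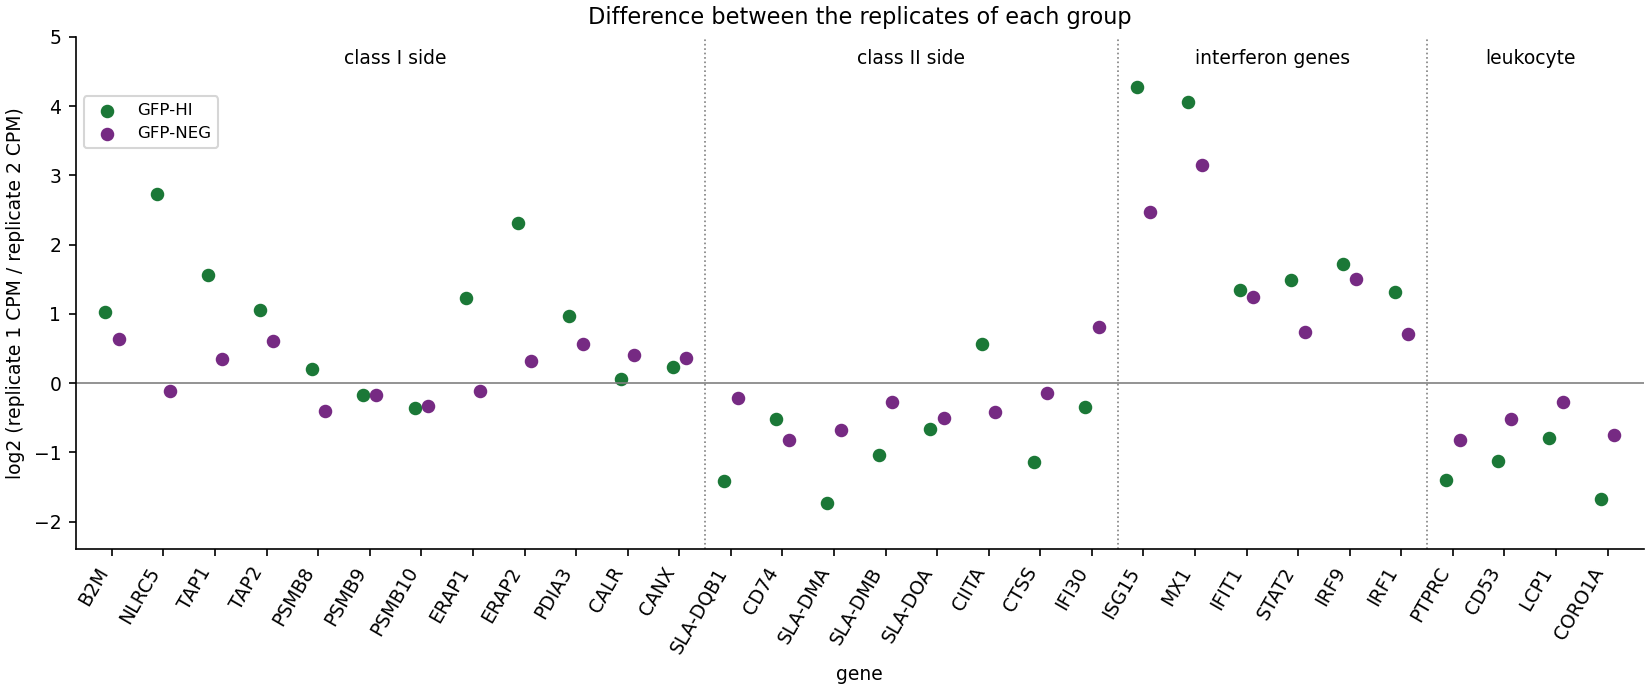
Log2 ratio of replicate 1 to replicate 2 in CPM, in GFP-HI (green) and GFP-NEG (purple), for the class I side, the class II side, 6 interferon genes chosen after their values were seen, and 4 leukocyte markers. NLRC5, TAP1, ERAP1 and ERAP2 in GFP-HI lie above 1 and the interferon genes lie above 0 in both groups, while the SLA- genes and the leukocyte markers lie under 0 in both.

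Of the other genes of the pathway, the list of interferon response and MHC regulators had 4 of 22 genes lower and 0 higher, a smaller share than the 27.6% and 8.33% of all genes, with a median log2 fold change of -0.24 against -0.25 for all genes. On the log2 scale IFIT1 fell by 2.75, IRF1 by 1.83, GBP1 by 1.39 and JAK2 by 1.38, with adjusted p-values of 0.0067, 0.018, 0.047 and 0.026 (edgeR). IRF1 is a transcription factor of class I and immunoproteasome genes and was at 154 and 62.1 CPM in GFP-HI against 478 and 291 CPM in GFP-NEG. The constitutive proteasome and its activators had 0 of 11 genes past the threshold in either direction (edgeR, median 0.40; PSMB7 had the smallest adjusted p). The other loading and endoplasmic reticulum factors had 1 of 11 higher, the disulfide isomerase P4HB (log2 fold change 1.47, adjusted p of 0.020, edgeR), and 0 lower.

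The endosomal list had members past the threshold in both directions, 3 of 12 higher and 1 lower. Over all genes tested, 8.33% were higher and 27.6% lower. LGMN, an asparaginyl endopeptidase of endosomes, was at 1077 and 2323 CPM in GFP-HI and at 339 and 98.7 CPM in GFP-NEG (log2 fold change 2.96, adjusted p of 0.0045, edgeR). On the log2 scale the cathepsin genes CTSV and CTSL rose by 2.71 and 2.86, with adjusted p-values of 2.0e-04 and 0.010 (edgeR). MARCHF1, a ubiquitin ligase that removes class II molecules from the surface of antigen-presenting cells, fell by 2.81 (adjusted p of 1.4e-05, edgeR). CTSL and CTSV are close relatives, and CTSL had only 2 to 279 counts per library.

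Of 7 class I-like genes tested, 4 fell in GFP-HI and 0 rose (median log2 fold change -2.06), against 27.6% and 8.33% of all genes tested. CD1E and CD1B, of the lipid-presenting CD1 family, fell by 4.48 and 3.67 on the log2 scale, with adjusted p-values of 6.0e-08 and 3.0e-08 (edgeR). ULBP1, a ligand of NKG2D, fell by 3.67, and MR1, which presents vitamin B metabolites, by 2.06, with adjusted p-values of 0.0058 and 0.021 (edgeR). FCGRT, the B2M-bound Fc receptor that recycles immunoglobulin G, was at 707 and 1037 CPM in GFP-HI against 437 and 263 CPM in GFP-NEG and did not pass (adjusted p of 0.18, edgeR). Of 8 co-stimulatory genes, 5 fell and 0 rose (median -2.47), against the same shares of all genes. CD86, a ligand of CD28 on antigen-presenting cells, was at 3.84 and 10.0 CPM against 58.7 and 108 CPM (log2 fold change -3.59, adjusted p of 3.3e-08, edgeR). CD80 and CD83 had log2 fold changes of -3.31 and -3.43 (adjusted p of 1.6e-05 and 3.8e-05, edgeR).

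With 2 libraries per group, several calls were lost when a single library was left out, also where the estimate changed little or grew. SLA-DOA and CIITA stayed past the threshold in all 13 alternative fits, and these 2 with SLA-DMA, SLA-DMB, SLA-DQB1, NLRC5 and PSMB8 in all 9 that used the 4 libraries. Without GFP-HI replicate 1, the log2 fold change was -1.44 for SLA-DMA (adjusted p of 0.15), -1.91 for SLA-DMB (0.089), -1.92 for SLA-DQB1 (0.14), -2.23 for HLA-DRA (0.10), -2.21 for PSMB8 (0.057) and -4.73 for NLRC5, which kept its call (edgeR). Without GFP-HI replicate 2 it was -3.38 for SLA-DQB1 (adjusted p of 0.059), -3.58 for HLA-DRA (0.057), -2.05 for NLRC5 (0.083) and -2.06 for PSMB8 (0.0997, edgeR). Without GFP-NEG replicate 2 it was -1.88 for SLA-DMA (adjusted p of 0.064), -2.53 for SLA-DQB1 (0.051) and -2.08 for PSMB8 (0.056, edgeR). CD74 passed with library size alone (adjusted p of 0.047, edgeR) and under DESeq2 without and with the replicate block (0.0020 and 1.7e-04). TAP1 passed with upper-quartile scaling and library size alone (0.031 and 0.024, edgeR) and under DESeq2 with the block (0.017).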

How the data were processed

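RNA sequencing measured 2 GFP-HI and 2 GFP-NEG libraries. The authors deposited 1 table of gene counts (whole numbers) per library, made with featureCounts of Subread 1.5.2 per the submitters' processing notes. The aligner, strand setting and treatment of multiply mapped reads are not given in the sources used here, so near-identical and overlapping genes are uncertain. For the genome build, the sources used here give only an annotation tag in the title of the deposited comparison. The authors' table of the comparison holds, per the file headers, for 16250 genes a log2 fold change with its p-value before and after adjustment, beside the test's own score; the submitters' notes name DESeq2 1.37.6. Its counts equal those of the single tables. Its 4 normalized columns were not used, since 2 are headed with another library than the counts they carry. Gene names came from the tables, and 834 Ensembl identifiers were renamed with the gene name table.

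Counts were tested with edgeR 4.0.16 (R 4.3.3; glmQLFit, glmQLFTest, TMM scaling, filterByExpr, group as the only term) over 19682 genes, adjusted by Benjamini-Hochberg with a threshold of 0.05. The common dispersion was 0.239, and gene-wise spread was moderated almost fully to the trend. Standard errors are the log2 fold change divided by the square root of F. Alternatives were 3 other scalings, 2 other filters, DESeq2 1.42.0 with and without the replicate block, edgeR with the block, thinning of GFP-HI to the GFP-NEG depth and leaving out each library. The procedure was tested on simulated data. Libraries of the same replicate number are not known to share an animal, so the number enters only as an alternative.

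All members were named, with values in every library; of the other pathway lists, up to 3 genes per direction with the smallest adjusted p were named, with those that a ratio uses. ISG15, MX1, IRF9, STAT2, GBP1, MR1, RFX5 and its partners, CD79A, HLA-DRA and HLA-DOB were added after their values were seen. The members and lists were chosen with earlier results of these data known. Counting error only is covered by depth: 1 count is worth 0.0452 to 0.155 CPM.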

Additional observations from a re-analysis of the deposited data

How the results depend on the processing

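Between 7 and 10 of the 20 presentation genes were lower in GFP-HI in the 9 alternatives that used all 4 libraries, and 0 were higher in any of the 13. When single libraries were left out, which assumes that the lone library of a group varies like the other group, the number lower ranged from 3 to 7 for all members, from 0 to 2 for the class I side and from 2 to 5 for the class II side. Over all genes, 7070 were called, against 4133 with at least 10 counts required in 2 libraries, 4428 under DESeq2 with the replicate block and 1791 to 6634 without single libraries. Lower genes numbered 5431, against 3182, 3195 and 3558 with that filter, under DESeq2 with the block and after thinning, and 1575 to 4999 without single libraries. Higher genes numbered 1639, against 1083 with upper-quartile scaling, 904 with library size alone, 951 with the filter and 216 to 1635 without single libraries. Deviations of same-numbered libraries from their group means correlated with an r of 0.19 across genes, and no source ties the numbers to animals. The edgeR fit with the replicate block called 7 members lower and, apart from PSMB9, changed no edgeR call of a member. The median of all genes, -0.25 on the log2 scale, became -0.58 with upper-quartile scaling and -0.67 with no scaling beyond library size. It also moved with the genes and libraries that entered, to -1.21 with no filter, -1.30 and -1.31 under DESeq2 without and with the block, -0.081 with at least 10 counts in 2 libraries, -0.59 without GFP-HI replicate 1 and 0.032 without GFP-NEG replicate 2. Signs turned only in genes not past the threshold. Without single libraries, log2 fold changes ranged from -0.94 (without GFP-HI replicate 1) to 0.041 (without GFP-HI replicate 2) for B2M, and between the same exclusions from -0.91 to 0.095 for TAP2, from -0.91 to 0.27 for ERAP1, from -1.69 to 0.56 for ERAP2, from -0.15 to 0.77 for PDIA3 and from -0.92 to 0.068 for the class I side median. CTSS ranged from -1.15 without GFP-HI replicate 2 to 0.040 without GFP-HI replicate 1. PDIA3 was at -6.3e-04 without GFP-NEG replicate 2, -0.0064 with upper-quartile scaling and -0.076 with library size alone. The cause of these shifts was not tested. Standard errors of 0.51 to 1.03 on the log2 scale limit what 2 libraries per group can show.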
